A study of Saccharomyces cerevisiae with 16 samples.

Results

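The 9 genes described here move zinc and, with lower affinity, other metals across the membranes of budding yeast, or belong to the same zinc response. They were taken by systematic name out of the 6844 genes quantified, and all 9 had a mean of at least 1 TPM (reads per transcript divided by its length and scaled to a sum of 1000000 in each library), the level at which genes were tested. RNA was sequenced from 16 libraries, 4 each of *atg18∆*, *fab1∆*, *vph1∆* and wild-type cells. The deletion strains carry the marker NatMX and are haploid segregants of the DHY background, with DHY211 as the parental line, and all 4 strains share the alleles TAO3(1493Q), RME1(INS-308A), MKT1(30G), MIP1(661T), CAT5(91M), HAP1+ and SAL1+. Cultures grew at room temperature in SDC (synthetic complete medium, 2% dextrose) and were harvested at an OD600 of 0.05, as duplicates on each of 2 days, and the labels do not say which replicate numbers share a day. Only 1 strain of each genotype was sequenced, so replicates measure the spread between cultures of a strain. No zinc-limited or zinc-loaded culture is among the libraries.

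Fab1 is the kinase that makes the vacuolar lipid PtdIns(3,5)P2, Atg18 binds that lipid and restrains its synthesis, and Vph1 is the subunit that places the proton pump (v-ATPase) on the vacuole. The vacuole is the main zinc store of the yeast cell, and the carriers that load it exchange zinc for protons, driven by the gradient that the pump builds. Zap1 is the activator that responds to zinc shortage: it binds zinc-responsive elements in promoters and turns on zinc uptake, release from the store and its own gene. The comparisons asked how the RNA of these genes differed in each deletion strain from wild type, and between the deletion strains.

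The members fall into 3 roles. Zrt1 and Zrt2 are the high-affinity and low-affinity zinc carriers of the plasma membrane, and Fet4 is a low-affinity plasma membrane carrier of iron, copper and zinc. Zrc1 and Cot1 carry zinc into the vacuole (Cot1 also cobalt), and Zrt3 carries it out. Zap1 is the regulator, Zps1 is a cell surface protein made under zinc shortage, and Adh4 is an alcohol dehydrogenase isozyme made under zinc shortage. In the RefSeq annotation of build R64, each of the 9 has 1 coding exon. *ZRT1* (YGL255W) lies on chromosome VII at 20978 to 22108 and *ADH4* (YGL256W) at 15159 to 16307 on the same strand, 4670 bases apart with no protein-coding gene between them. *ZRT2* (YLR130C) lies on chromosome XII (402794 to 404062), *FET4* (YMR319C) on XIII (912880 to 914538), *ZRT3* (YKL175W) on XI (118793 to 120304), *ZRC1* (YMR243C) on XIII (754838 to 756166), *COT1* (YOR316C) on XV (906236 to 907555), *ZAP1* (YJL056C) on X (330431 to 333073) and *ZPS1* (YOL154W) on XV (34658 to 35407). The related carriers *ZRT1* and *ZRT2* shared 47.8% of their aligned coding bases, with a longest identical run of 12 bases, and *ZRC1* and *COT1* shared 59.8%, with a longest identical run of 14 bases.

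The promoters were searched for the zinc-responsive element in the 500 bases before each start codon, on both strands. The strict form, ACCTT and AAGGT with any 1 base between them, was present in 0.15% of 6000 promoters and in 1 of the 9 members, *ZRT1*. A relaxed form, ACC and AAGGT with any 3 bases between them, which includes the strict one, was present in 1.07% of promoters and in 5 of the 9 members, *ZRT1*, *ZRT2*, *ZRT3*, *ZAP1* and *ZPS1*. Stretches holding these matches are shown because the libraries below compare the RNA of the same genes (RefSeq, R64, read 5′ to 3′ along each gene's strand, capitals mark a match to the relaxed form on either strand, which in *FET4* are replaced by a match to GCACCC, the core bound by the iron regulators Aft1 and Aft2).
ZRT1 (chrVII:20648-20798, plus strand): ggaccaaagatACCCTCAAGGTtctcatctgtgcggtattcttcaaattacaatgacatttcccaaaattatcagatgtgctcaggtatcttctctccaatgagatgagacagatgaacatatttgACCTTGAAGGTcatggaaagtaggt
ZRT2 (chrXII:404242-404392, minus strand): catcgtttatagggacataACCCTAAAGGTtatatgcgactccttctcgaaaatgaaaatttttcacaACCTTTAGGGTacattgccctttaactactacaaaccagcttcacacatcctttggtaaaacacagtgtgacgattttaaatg
ZRT3 (chrXI:118618-118668, plus strand): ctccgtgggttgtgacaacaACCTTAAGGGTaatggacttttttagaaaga
ZAP1 (chrX:333188-333238, minus strand): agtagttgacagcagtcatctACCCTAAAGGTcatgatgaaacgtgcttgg
ZPS1 (chrXV:34313-34363, plus strand): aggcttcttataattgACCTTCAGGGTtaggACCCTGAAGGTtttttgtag
FET4 (chrXIII:914723-914773, minus strand): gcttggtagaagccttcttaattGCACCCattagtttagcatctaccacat
The match nearest to the start codon of *ZRT1* begins 204 bases before it, and others begin at 319 and, outside the stretch shown, at 456 bases. In *ZRT2* matches begin at 311 and 262 bases, in *ZPS1* at 329 and 314, in *ZRT3* at 155 and in *ZAP1* at 144 bases before the start codon. GCACCC was present in 7.62% of promoters, and of the members in *FET4*, at 212 bases, and *ZRT2*, at 479 bases. ATTGTTC, the core bound by the regulator Rox1, was present in 11.8% of promoters and in 0 of the 9 members. AGGGG, the core of the stress response element, was present in 34.1% of promoters and in 0 of the 9 members. None of these motifs matched the windows of *ZRC1*, *COT1* or *ADH4*. A match to the relaxed form at 14641 to 14651 on chromosome VII, between *ADH4* and its neighbour *MNT2*, fell in the window of *MNT2* and just outside that of *ADH4*. A match is a run of letters and was not shown to be bound here.

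The libraries were checked before the members were read. *ATG18* was at 0 to 0.0106 TPM in *atg18∆* and *VPH1* at 0 to 0.191 TPM in *vph1∆*. *FAB1* was at 1.28 to 1.58 TPM in *fab1∆*, against 1.77 to 3.55 TPM in wild type, so reads assigned to *FAB1* remained in the *fab1∆* libraries. Wild-type replicate 3 stood apart: its 10 most abundant genes took 31.2% of its TPM, against 14.4 to 15.9% in the other 15 libraries, and 6091 genes reached 1 TPM in it, against 6329 to 6471 in the others. The study's methods set aside 1 wild-type sample for poor RNA quality without naming it. Whether that sample is wild-type replicate 3 is not given, so all 16 libraries were kept. The comparisons of the members are also given without wild-type replicate 3. The 9 members stood in that library at 0.318 to 0.493 of their mean in the other 3 wild-type libraries (median 0.42, against 0.495 over all genes tested). The median log2 fold change of all genes tested against wild type was above 0 with all libraries, at 0.27 for *atg18∆*, 0.25 for *fab1∆* and 0.27 for *vph1∆*, and came to 0.05, 0.07 and 0.06 without that library. Markers of **a** cells summed to between 12886 and 25187 TPM and markers of alpha cells to between 15.4 and 61.0 TPM in all libraries. The highest **a** sum was that of wild-type replicate 3, with *MFA1* at 10154 and *MFA2* at 14639 TPM. The other 3 wild-type libraries held 4967 to 5278 TPM of *MFA1* and 8624 to 9176 TPM of *MFA2*. The alpha sum was 57.5 to 61.0 TPM in *fab1∆*, against 15.4 to 34.8 TPM in wild type. Of the 3 alpha markers tested 1, *AFB1*, was higher in *fab1∆* (log2 fold change 1.35 ± 0.20, SE, adjusted p = 0.000154, and 1.06 ± 0.08 without wild-type replicate 3). Of all genes 22.9% were higher there, and 32.4% without that library. *STE3*, below the level for testing, was at 1.45 to 1.64 TPM in *fab1∆*, against 0.312 to 0.577 TPM in wild type. In *vph1∆*, *MF(ALPHA)1* was lower than in wild type (-0.62 ± 0.14, adjusted p = 0.0195). Of the 6 **a** cell markers 1 was higher in *fab1∆* (22.9% of all genes), *AGA2* (0.91 ± 0.10, adjusted p = 9.95e-06). Without wild-type replicate 3 it was 3 (32.4% of all genes), with *MFA1* (0.40 ± 0.07) and *MFA2* (0.47 ± 0.04). The part of these markers in the results below was not tested.

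**Figure D1:**
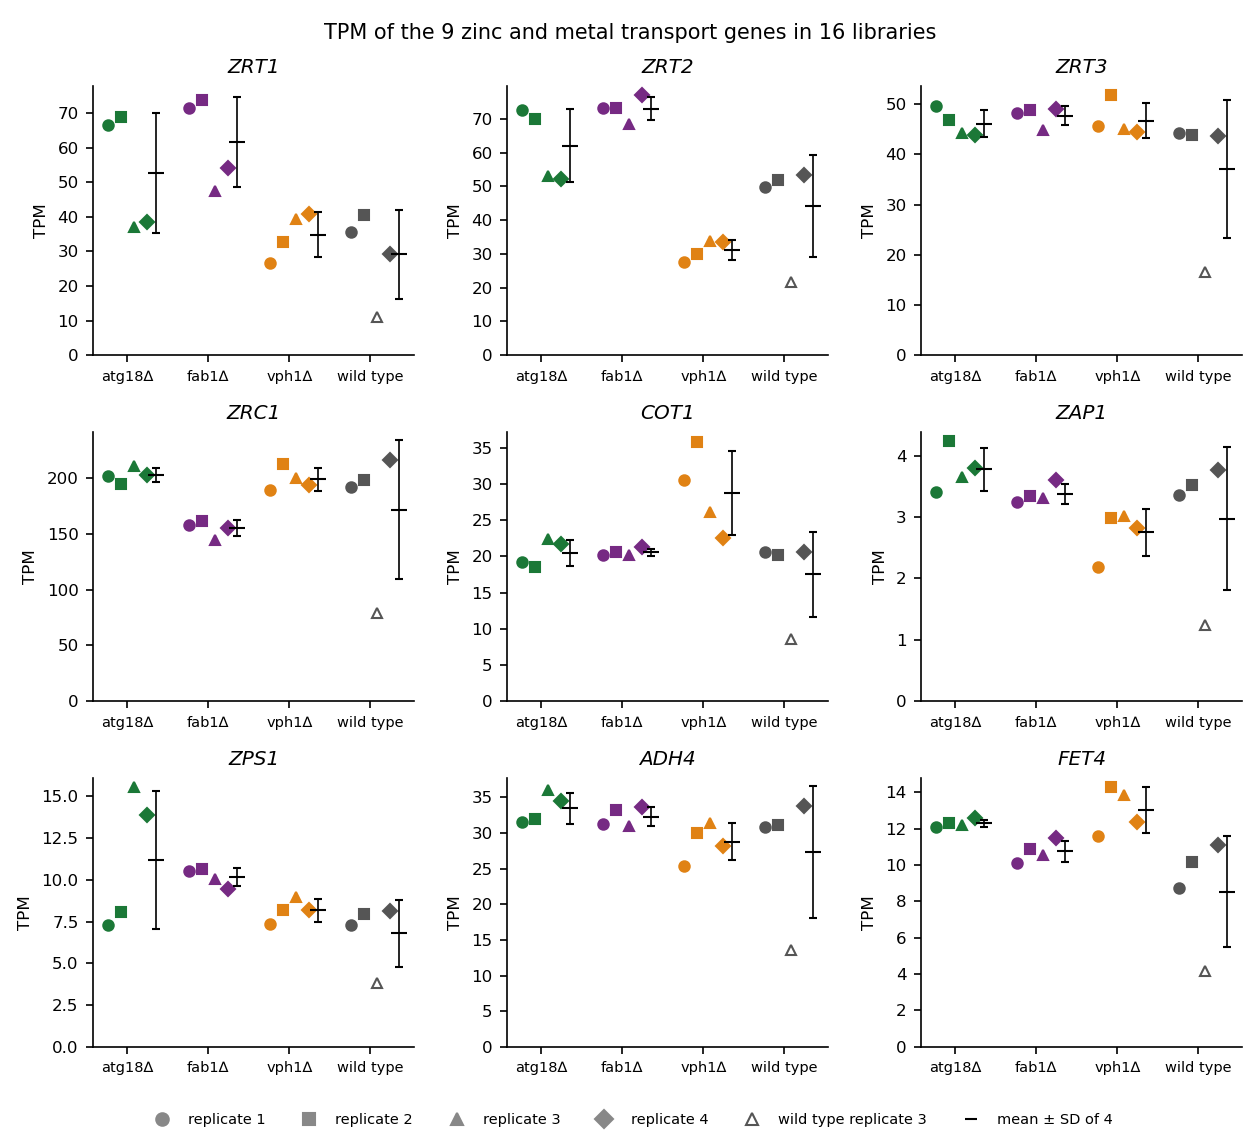
TPM (vertical axes, from 0) of each of the 9 genes in *atg18∆*, *fab1∆*, *vph1∆* and wild-type libraries, with a symbol for each replicate number, an open triangle for wild-type replicate 3, and bars for mean ± SD of 4 libraries. *ZRT2* sits at 27.7 to 33.7 TPM in *vph1∆*, under all *fab1∆* libraries (68.4 to 76.9 TPM), and the open triangle is the lowest wild-type value of every gene.

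*ZRT1* was highest in *fab1∆*, where replicates 1 to 4 held 71.4, 73.9, 47.5 and 54.0 TPM. It held 66.7, 68.8, 36.9 and 38.5 TPM in *atg18∆*, 26.6, 32.7, 39.4 and 40.8 TPM in *vph1∆*, and 35.6, 40.7, 11.2 and 29.3 TPM in wild type. All 4 *fab1∆* libraries were above all wild-type libraries, whereas *atg18∆* and *vph1∆* each overlapped wild type. *ZRT1* averaged 61.7 ± 13.0 TPM in *fab1∆* and 29.2 ± 12.9 TPM in wild type (SD, n = 4 each), a ratio of means of 2.11. It rose in *fab1∆*, with a log2 fold change of 1.17 ± 0.32 (SE, limma on log2(TPM + 1), two-sided, adjusted over all 6404 genes tested, adjusted p = 0.0129), and one of 0.78 ± 0.23 without wild-type replicate 3 (adjusted p = 0.0133). Log2 fold changes on this scale understate the change of genes with low TPM.

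The *atg18∆* libraries split for *ZRT1*, with replicates 1 and 2 inside the range of the *fab1∆* libraries and replicates 3 and 4 inside that of the wild-type libraries. The mean of replicates 3 and 4 was 0.557 of that of replicates 1 and 2 in *atg18∆*, 0.699 in *fab1∆*, 1.35 in *vph1∆* and 0.531 in wild type. The log2 fold change in *atg18∆* was 0.91 ± 0.32 (adjusted p = 0.294), and 0.52 ± 0.23 without wild-type replicate 3 (adjusted p = 0.814). In *vph1∆* it was 0.37 ± 0.32 with all libraries and -0.02 ± 0.23 without wild-type replicate 3, where the direction turned. Within replicates 1 and 2, *ZRT1* in *vph1∆* differed from wild type by -0.35 on the log2 scale, and within replicates 3 and 4 by 1.10, or by 0.44 against wild-type replicate 4 alone. Whether these numbers mark the days of growth is not given in the labels.

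*ZRT2* separated the strains more sharply. Replicates 1 to 4 held 73.3, 73.3, 68.4 and 76.9 TPM in *fab1∆*, 72.7, 69.9, 53.0 and 52.3 TPM in *atg18∆*, and 27.7, 29.9, 33.7 and 33.5 TPM in *vph1∆*. Wild-type libraries held 49.9, 51.8, 21.8 and 53.5 TPM, and apart from replicate 3 all of them lay above every *vph1∆* library and below every *fab1∆* library. *ZRT2* averaged 73.0 ± 3.5 TPM in *fab1∆* and 44.2 ± 15.0 TPM in wild type (SD, n = 4 each), and 51.7 ± 1.8 TPM in wild type without replicate 3. It rose in *fab1∆*, with a log2 fold change of 0.79 ± 0.22 (adjusted p = 0.0141), and one of 0.49 ± 0.11 without wild-type replicate 3 (adjusted p = 0.00174). In a fit of the *fab1∆* and wild-type libraries alone, neither *ZRT1* nor *ZRT2* passed (adjusted p = 0.0687 and 0.0997).

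The *vph1∆* mean of *ZRT2* was 31.2 ± 2.9 TPM, 0.705 of the wild-type mean and 0.603 of it without wild-type replicate 3. With all libraries the difference in *vph1∆* did not pass (log2 fold change -0.41 ± 0.22, adjusted p = 0.237). Without wild-type replicate 3 it fell by 0.71 ± 0.11 on the log2 scale (adjusted p = 0.000378). In *atg18∆* the log2 fold change was 0.54 ± 0.22 (adjusted p = 0.294), and 0.24 ± 0.11 without that library (adjusted p = 0.817).

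*FET4*, the third plasma membrane carrier, was low in all strains and highest in *vph1∆*, with 11.6, 14.3, 13.9 and 12.4 TPM. It held 12.1, 12.3, 12.2 and 12.6 TPM in *atg18∆*, 10.1, 10.9, 10.5 and 11.5 TPM in *fab1∆*, and 8.72, 10.1, 4.20 and 11.1 TPM in wild type. Every *vph1∆* and *atg18∆* library was above every wild-type library, and the *fab1∆* libraries overlapped wild type. Its log2 fold change in *vph1∆* was 0.62 ± 0.19 with all libraries (adjusted p = 0.0789), and it rose by 0.35 ± 0.08 without wild-type replicate 3 (adjusted p = 0.00774). In *atg18∆*, where the means were 12.3 ± 0.2 TPM in *atg18∆* and 8.54 ± 3.05 TPM in wild type (SD, n = 4 each), it was 0.55 ± 0.19 (adjusted p = 0.294), and 0.28 ± 0.08 without that library (adjusted p = 0.386).

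Of the vacuolar carriers, *ZRC1* was the most abundant of the 9 genes per length in every library. It held 158, 161, 145 and 156 TPM in *fab1∆*, 202, 195, 211 and 203 TPM in *atg18∆*, and 190, 213, 200 and 194 TPM in *vph1∆*. Wild-type libraries held 193, 199, 79.5 and 216 TPM, so the *fab1∆* libraries lay below all wild-type libraries other than replicate 3. The log2 fold change in *fab1∆* was -0.05 ± 0.22 with all libraries (adjusted p = 0.899). Without wild-type replicate 3 *ZRC1* fell in *fab1∆* by 0.38 ± 0.05 on the log2 scale (adjusted p = 2.9e-05), to 155 ± 7 TPM (SD, n = 4), against 203 ± 12 TPM in wild type (n = 3).

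*COT1*, the other carrier into the vacuole, was highest in *vph1∆*, with 30.6, 35.9, 26.2 and 22.5 TPM. It held 19.2, 18.6, 22.4 and 21.7 TPM in *atg18∆*, 20.2, 20.6, 20.2 and 21.3 TPM in *fab1∆*, and 20.6, 20.2, 8.61 and 20.6 TPM in wild type. The *vph1∆* libraries were all above the wild-type libraries, by the widest margin in replicates 1 and 2, while *atg18∆* and *fab1∆* were level with the wild-type libraries other than replicate 3. The log2 fold change in *vph1∆* was 0.74 ± 0.22 with all libraries (adjusted p = 0.0607), and *COT1* rose there by 0.45 ± 0.11 without wild-type replicate 3 (adjusted p = 0.014). Within replicates 1 and 2 the difference was 0.67, and against wild-type replicate 4 alone that of *vph1∆* replicates 3 and 4 was 0.22.

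*ZRT3*, which releases zinc from the vacuole, was level across the strains. It lay between 43.9 and 49.6 TPM in *atg18∆*, 44.9 and 49.1 TPM in *fab1∆*, 44.4 and 51.9 TPM in *vph1∆*, and 43.7 and 44.3 TPM in the wild-type libraries other than replicate 3 (16.6 TPM). No comparison passed for *ZRT3*, and without wild-type replicate 3 its log2 fold changes against wild type were 0.07 ± 0.06 in *atg18∆*, 0.12 ± 0.06 in *fab1∆* and 0.08 ± 0.06 in *vph1∆*.

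The regulator *ZAP1* was the least abundant member, with 2.19, 2.99, 3.02 and 2.82 TPM in *vph1∆*. It held 3.41, 4.24, 3.66 and 3.81 TPM in *atg18∆*, 3.25, 3.34, 3.32 and 3.61 TPM in *fab1∆*, and 3.37, 3.53, 1.24 and 3.76 TPM in wild type. All *vph1∆* libraries were below all others except wild-type replicate 3. The log2 fold change in *vph1∆* was -0.03 ± 0.19 with all libraries (adjusted p = 0.905), and *ZAP1* fell there by 0.28 ± 0.09 on the log2 scale without wild-type replicate 3 (adjusted p = 0.0426).

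*ZPS1* held 7.29, 8.07, 15.5 and 13.9 TPM in *atg18∆*, so its 2 high libraries, replicates 3 and 4, were the ones in which *ZRT1* was low. It held 10.5, 10.7, 10.0 and 9.43 TPM in *fab1∆*, 7.33, 8.20, 9.0 and 8.17 TPM in *vph1∆*, and 7.28, 7.96, 3.84 and 8.13 TPM in wild type. All *fab1∆* libraries were above all wild-type libraries, with a log2 fold change of 0.56 ± 0.22 (adjusted p = 0.0789), or 0.34 ± 0.19 without wild-type replicate 3 (adjusted p = 0.152). In *atg18∆* it was 0.62 ± 0.22 (adjusted p = 0.294), or 0.41 ± 0.19 without wild-type replicate 3 (adjusted p = 0.833). *ADH4* lay between 31.5 and 36.1 TPM in *atg18∆*, 31.0 and 33.6 TPM in *fab1∆*, 25.4 and 31.5 TPM in *vph1∆*, and 30.9 and 33.8 TPM in the wild-type libraries other than replicate 3 (13.6 TPM), and passed in no comparison with wild type, with or without that library.

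**Figure D2:**
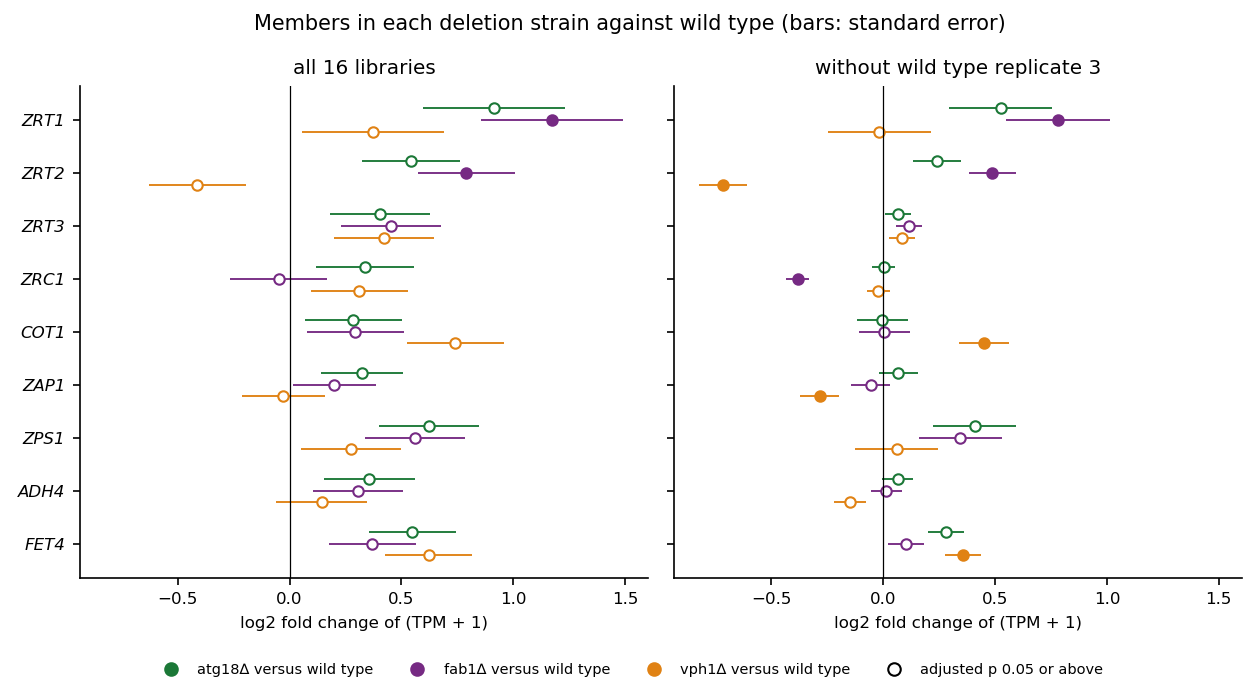
Log2 fold change of (TPM + 1) of each gene in *atg18∆*, *fab1∆* and *vph1∆* against wild type (horizontal axis, bars are SE), with all 16 libraries on the left and without wild-type replicate 3 on the right. Filled points passed an adjusted p of 0.05: *ZRT1* and *ZRT2* in *fab1∆* on the left, and on the right also *ZRC1* in *fab1∆* and *ZRT2*, *COT1*, *ZAP1* and *FET4* in *vph1∆*.

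Counted over the 9 members with all 16 libraries, 2 of 9 were called in *fab1∆*, where 23.5% of all genes tested were called. Both rose (22.9% of all genes rose) and 0 fell (0.609%), so the share of members that rose was near that of all genes. After median scaling, in which each library is shifted to 1 common median, 14.9% of all genes rose and 23.3% fell in *fab1∆*, and 2 members rose and 1 fell. In *vph1∆* 0 of 9 were called, against 4.87% of all genes, and limma gave an unadjusted p below 0.05 for 2 of them (*COT1* and *FET4*) and for 23.2% of all genes. In *atg18∆* 0 of 9 were called, against 0.0468% of all genes, with an unadjusted p below 0.05 for 4 of them (*ZRT1*, *ZRT2*, *ZPS1* and *FET4*) and for 6.32% of all genes. In *fab1∆* it was below 0.05 for 3 of 9 and for 36.4% of all genes. Without wild-type replicate 3, 3 of 9 were called in *fab1∆* (42.4% of all genes), 2 higher and 1 lower (32.4% and 10.0% of all genes). In *vph1∆* 4 of 9 were then called (14.7%), 2 higher and 2 lower (11.6% and 3.12%), and in *atg18∆* again 0 of 9 (0.0936%), with an unadjusted p below 0.05 for the same 4 genes and for 5.95% of all genes. After median scaling of all libraries the unadjusted limma p of *ZRT2* in *atg18∆* was 0.0653 (below 0.05 for 7.06% of all genes). With median scaling and without wild-type replicate 3, that of *ZRT1* was 0.0969 and that of *ZRT2* 0.189 (below 0.05 for 5.71%). *ZPS1* and *FET4* stayed below 0.05 in both. The median log2 fold change of the members came to 0.41 for *atg18∆*, 0.37 for *fab1∆* and 0.31 for *vph1∆*, beside the medians of all genes given above, and without wild-type replicate 3 to 0.07, 0.10 and -0.02. The 3 comparisons share the wild-type libraries. In cultures measured in bulk, fewer cells with a transcript and less of it per cell cannot be told apart.

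Differences between the deletion strains do not use the wild-type values themselves. *ZRT2* was lower in *vph1∆* than in *fab1∆* in every library, at 0.428 of the *fab1∆* mean, by 1.20 on the log2 scale (log2 fold change -1.20 ± 0.22, adjusted p = 0.0019). This was the only 1 of the 9 members called between *vph1∆* and *fab1∆* with all 16 libraries, where 6.29% of all genes were called (5.76% lower and 0.531% higher), and it kept its call in all 18 alternatives tried (log2 fold change -1.24 to -1.11). After median scaling 13.5% of all genes were lower and 18.4% higher in *vph1∆* than in *fab1∆*, so the excess of lower calls turned, and 3 members were lower and 3 higher. Wild-type replicate 3 still entered that fit through the shared estimate of the spread. Without it 6 of 9 members were called, against 41.1% of all genes (25.8% lower and 15.3% higher): *ZRT1* (-0.80 ± 0.21), *ZRT2* (-1.20 ± 0.10) and *ZAP1* (-0.23 ± 0.08) were lower and *ZRC1* (0.36 ± 0.05), *COT1* (0.45 ± 0.10) and *FET4* (0.25 ± 0.07) were higher in *vph1∆*.

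Between *vph1∆* and *atg18∆*, 0 of 9 members were called with all libraries (0.671% of all genes), with an unadjusted p below 0.05 for 6.53% of all genes and for 1 member, *ZRT2*, at -0.96 ± 0.22 (adjusted p = 0.0582). Without wild-type replicate 3, 4 of 9 were called, against 12.1% of all genes (3.18% lower and 8.88% higher), with *ZRT2* (-0.96 ± 0.10), *ZAP1* (-0.35 ± 0.08) and *ADH4* (-0.21 ± 0.06) lower and *COT1* (0.46 ± 0.10) higher in *vph1∆*. Between *fab1∆* and *atg18∆*, 0 of 9 were called with all libraries (10.9% of all genes), and 0 had an unadjusted p below 0.05, against 22.1% of all genes. Without wild-type replicate 3, *ZRC1* was lower in *fab1∆* (-0.39 ± 0.05, adjusted p = 1.31e-05) and *ZRT2* higher (0.25 ± 0.10, adjusted p = 0.0498), 2 of 9 against 47.8% of all genes (17.0% lower and 30.8% higher).

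**Figure D3:**
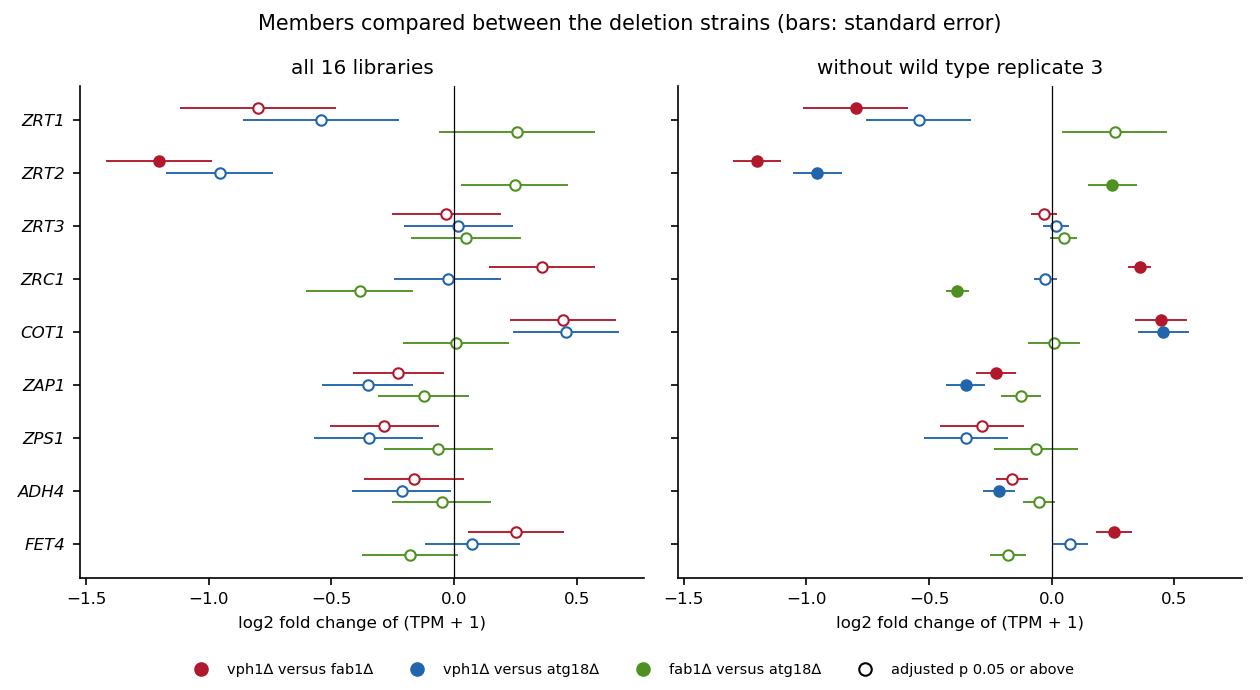
Log2 fold change of (TPM + 1) of each gene between pairs of deletion strains (horizontal axis, bars are SE), with all 16 libraries in the fit on the left and without wild-type replicate 3 on the right, filled where the adjusted p was below 0.05. The differences are the same on both sides and the errors are smaller on the right, where 6 members pass between *vph1∆* and *fab1∆* instead of *ZRT2* alone.

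Ratios of 2 members within a library do not depend on the scaling of that library, and are given as a description. *ZRT2* over *ZRC1*, a plasma membrane carrier over a vacuolar one, was 0.454 to 0.494 in *fab1∆*, 0.252 to 0.360 in *atg18∆*, 0.140 to 0.172 in *vph1∆* and 0.247 to 0.274 in wild type. Wild-type replicate 3 held the highest of the wild-type ratios, 0.274, beside 0.259, 0.260 and 0.247, so it did not stand apart on this measure. *ZRT1* over *ZRC1* was 0.327 to 0.458 in *fab1∆*, against 0.135 to 0.204 in wild type, 0.175 to 0.352 in *atg18∆* and 0.141 to 0.210 in *vph1∆*. *ZRT1* over *ZRT2* was 0.961 to 1.22 in *vph1∆*, against 0.513 to 0.785 in wild type. It was 0.693 to 1.01 in *fab1∆* and 0.696 to 0.985 in *atg18∆*, both overlapping *vph1∆* and wild type. *ZRC1* over *COT1* was 7.20 to 7.84 in *fab1∆* and 5.94 to 8.64 in *vph1∆*, against 9.23 to 10.5 in wild type, and 9.35 to 10.5 in *atg18∆*. *ZRT3* over *ZRC1*, both vacuolar carriers, was 0.303 to 0.315 in *fab1∆*, against 0.202 to 0.230 in wild type. It was 0.210 to 0.245 in *atg18∆* and 0.225 to 0.243 in *vph1∆*. A ratio over *ZRC1* also rises where *ZRC1* itself is lower. The *vph1∆* libraries overlapped the wild-type libraries in *ZRT1* over *ZRC1* and in *ZRT3* over *ZRC1*, and in none of the other ratios given.

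**Figure D4:**
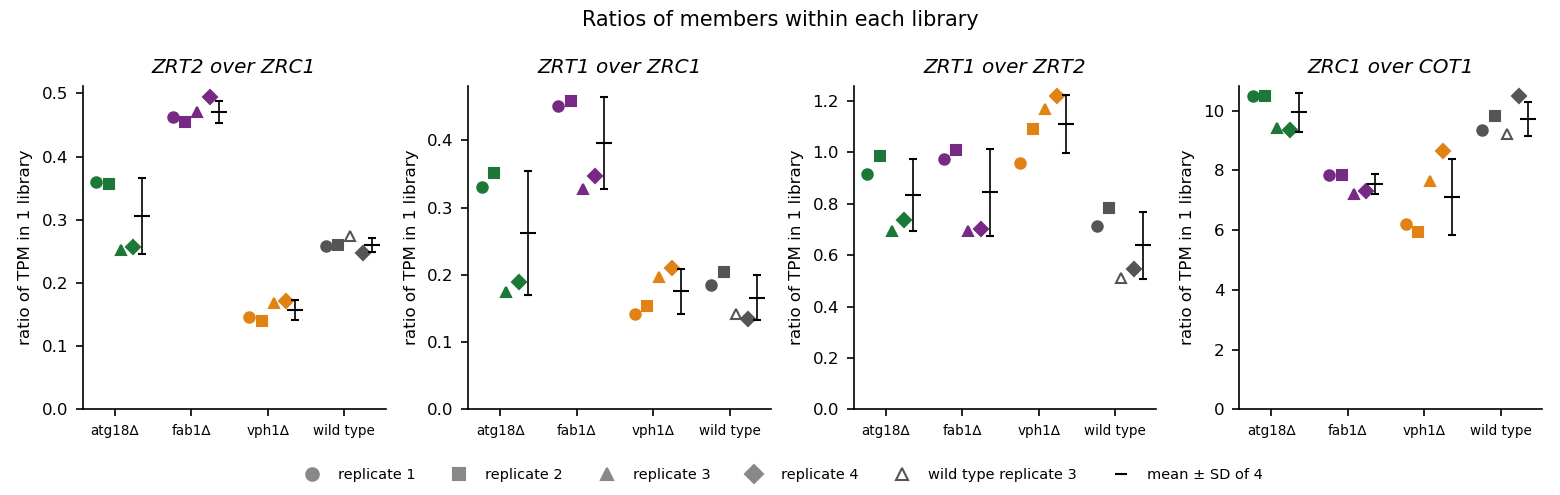
Ratio of the TPM of 2 members in the same library (vertical axes, from 0, no unit) by strain, with a symbol for each replicate number, an open triangle for wild-type replicate 3, and bars for mean ± SD of 4. For *ZRT2* over *ZRC1* the *fab1∆* libraries (0.454 to 0.494) lie above and the *vph1∆* libraries (0.140 to 0.172) below the wild-type libraries (0.247 to 0.274), with the open triangle among them.

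Across the 15 libraries other than wild-type replicate 3, *ZRT1* and *ZRT2* varied together (Pearson r of log2(TPM + 1) 0.77), as did *ZAP1* and *ADH4* (0.84), while *ZRT2* and *COT1* varied inversely (-0.83). *ZRT1* and *ZPS1*, which both hold the relaxed element, had an r of 0.11. The genes most like *ZRT1*, among 4106 with a mean of at least 10 TPM, were *TPI1* (0.88), *SGF11* (0.88) and *FBA1* (0.85), of which *TPI1* and *FBA1* encode glycolytic enzymes. Libraries of a strain share their genotype, so these correlations are descriptions without a test.

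Other genes of the zinc response were read from a list of 15 targets of Zap1 outside the members. With all libraries 3 of 15 rose and 0 fell in *fab1∆*, where 22.9% and 0.609% of all genes did: *TSA1*, a peroxiredoxin (log2 fold change 0.62 ± 0.17), *VEL1*, a gene of unknown function (0.61 ± 0.11), and *IZH2*, a membrane protein of zinc homeostasis (0.44 ± 0.15). Reads of *VEL1* and *YOR387C* are uncertain, since the pair share 92.4% of their coding bases. *VEL1* averaged 1.55 TPM in *fab1∆*, 0.898 TPM in *atg18∆*, 1.05 TPM in *vph1∆* and 0.685 TPM in wild type. Its mean reached the level for testing only through its *fab1∆* libraries, so its call is no support for a rise there. The counts with and without wild-type replicate 3 include it. When wild-type replicate 3 was left out, 4 of 15 rose (32.4% of all genes), with *TSA1* at 0.37 ± 0.06, *VEL1* at 0.52 ± 0.09, *IZH2* at 0.28 ± 0.10 and *PIS1*, the phosphatidylinositol synthase, at 0.23 ± 0.06, and *MNT2*, a mannosyltransferase, fell (1 of 15, against 10.0%). After median scaling of all libraries 1 of 15 rose in *fab1∆* and 4 fell, against 14.9% and 23.3% of all genes. In *vph1∆* 2 of 15 rose, where 4.42% of all genes did, *IZH1* (0.99 ± 0.22) and *IZH2* (0.79 ± 0.15). Both also rose without wild-type replicate 3 (0.68 ± 0.10 and 0.64 ± 0.10), where 11.6% of all genes did. In *atg18∆* 0 of 15 passed (0.0468% of all genes). *IZH1* held 76.1, 96.3, 71.1 and 67.4 TPM in *vph1∆*, against 44.6, 46.3, 19.5 and 52.0 TPM in wild type, with no overlap. The median log2 fold change of the 15 was 0.33 in *fab1∆* and 0.31 in *vph1∆*, beside 0.25 and 0.27 over all genes tested, and without wild-type replicate 3 it was 0.10 and 0.11, beside 0.07 and 0.06.

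Of the 3 genes of zinc transport in the early secretory pathway, *YKE4*, a zinc carrier of the ER membrane, rose in *fab1∆*, where 22.9% of all genes did. It held 65.2, 63.4, 57.2 and 60.9 TPM in *fab1∆*, against 40.6, 37.4, 15.0 and 35.8 TPM in wild type, with a log2 fold change of 1.01 ± 0.22 (adjusted p = 0.00274), or 0.69 ± 0.06 without wild-type replicate 3. *MSC2* and *ZRG17*, whose products form a zinc carrier of the ER together, passed in no comparison with wild type, with or without that library and without median scaling. After median scaling of all libraries 1 of the 3 rose and 1 fell in *fab1∆*, against 14.9% and 23.3% of all genes. *ADH1* and *ADH3*, zinc-dependent alcohol dehydrogenases that Zap1 represses, did not pass in *fab1∆* (0.36 ± 0.21 and 0.37 ± 0.20) or in *vph1∆* (0.12 ± 0.21 and 0.44 ± 0.20).

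Among 21 other metal ion transporters, 3 rose in *fab1∆*, where 22.9% of all genes did: *SMF1*, a manganese carrier (0.59 ± 0.15), *CTR3*, a copper carrier (0.50 ± 0.10), and *MMT2*, a mitochondrial metal carrier (0.63 ± 0.18). *PHO84*, the high-affinity phosphate carrier, which also takes up manganese, was the 1 that fell, by 3.81 ± 0.57 on the log2 scale in *fab1∆* (adjusted p = 0.000146) and by 2.88 ± 0.57 in *vph1∆* (adjusted p = 0.00886). Of all genes 0.609% fell in *fab1∆* and 0.453% in *vph1∆*. Replicates 1 to 4 held 19.3, 19.8, 9.28 and 9.20 TPM of *PHO84* in *fab1∆* and 43.1, 54.4, 15.2 and 13.9 TPM in *vph1∆*. They held 321, 305, 163 and 158 TPM in *atg18∆* and 441, 428, 55.4 and 161 TPM in wild type. Replicates 3 and 4 were thus below replicates 1 and 2 in every strain, and wild-type replicate 3 lay just above the highest *vph1∆* library. When wild-type replicate 3 was left out, 3 rose in *fab1∆* (*SMF1* 0.41 ± 0.09, *CTR3* 0.52 ± 0.07, *MMT2* 0.38 ± 0.06), and *PHO84* (-4.43 ± 0.50) and *ALR1*, a magnesium carrier (-0.46 ± 0.09), fell. Of all genes 32.4% then rose and 10.0% fell. After median scaling 2 of 21 rose and 4 fell in *fab1∆*, against 14.9% and 23.3% of all genes. In *vph1∆* without wild-type replicate 3, *SMF1* (0.29 ± 0.09) and *ATX2*, a Golgi manganese carrier (0.28 ± 0.06), rose and *PHO84* (-3.50 ± 0.50) fell. Of all genes 11.6% rose and 3.12% fell there. In *atg18∆* 0 of 21 passed with or without that library (0.0468% and 0.0936% of all genes). *ROX1* and *AFT1*, regulators that act on *FET4*, did not pass against wild type with all libraries (*ROX1* 0.49 ± 0.22 in *vph1∆*), and without wild-type replicate 3 *ROX1* fell in *fab1∆* by 0.23 ± 0.08. Beside *ADH4* and *ZRT1* on chromosome VII, *MNT2* fell in *fab1∆* by 0.40 ± 0.07 without that library (adjusted p = 0.000407) and *FZF1* did not pass against wild type with or without it.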

How the data were processed

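Groups and replicate numbers of the 16 libraries (4 each of *atg18∆*, *fab1∆*, *vph1∆* and wild type) were taken from the labels. The authors quantified transcripts with Salmon against the Ensembl SacCer3 transcriptome, without adaptor trimming, and deposited TPM values. The processing notes give Salmon 0.8.1, and the version in the study's methods differs. The labels give polyA RNA while the protocol left out polyA selection, so it is unsettled which RNA was sequenced. Because TPM keeps no read numbers, sequencing depth is unknown. Each SE comes from the spread of libraries around their strain means, pooled over the strains in the fit and moderated across genes. In the main fit wild-type replicate 3 therefore enters the SE of every comparison. An SD given with a mean is that of 1 strain's libraries.

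Genes with a mean of at least 1 TPM (6404) entered a limma fit (3.58.1, in R 4.3.3) of log2(TPM + 1) with 1 coefficient per strain and a variance trend. Tests were two-sided, with p-values adjusted by Benjamini-Hochberg across those genes and a threshold of 0.05. This replaces the study's sleuth test, which needs read counts. The fit was tested on data simulated from the means and spreads of the libraries other than wild-type replicate 3. A library that stands apart like that one was not simulated, so the test does not cover its effect on the main fit. All 9 members were named, and from each list the genes that passed in a described comparison or else those with the smallest p. The members and lists were chosen with earlier results of these data known.

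Deviations of same-numbered libraries correlated at 0.13 to 0.25 in *fab1∆* and wild type, all above 0.1. For *fab1∆* replicates 2 and 3, however, a wild-type library of another number correlated more (0.246 against 0.130, and 0.216 against 0.184). In the other comparisons not every same-numbered pair was above 0.1. Neither these values nor the labels settle whether the numbers pair, so the main fit used no pairing. Other settings were pseudocounts of 0.1 and 5, no filter or a mean of at least 10 TPM, median scaling, a fit of the 2 strains alone (pairwise fit), the replicate number as a block, a term for replicates 1 and 2 against 3 and 4, and each library left out in turn. Leaving out wild-type replicate 3 in comparisons between deletion strains, and with median scaling, was added after the data were seen. Promoters (500 bases before the start codon) and coding sequences were read from RefSeq build R64 with Python 3.11.15 and Biopython 1.88.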

Additional observations from a re-analysis of the deposited data

Results flagged for a closer look

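Of 36 groups of 4 libraries (9 members in 4 strains), 6 held a library far from the other 3, and chance alone flags about 1 in 20 such groups. Wild-type replicate 3 was the low library in 5 of them, with *ZRT2* at 21.8 TPM (median of the 4 wild-type libraries 50.8 TPM), *ZRT3* at 16.6 TPM (43.8 TPM), *COT1* at 8.61 TPM (20.4 TPM), *ZAP1* at 1.24 TPM (3.45 TPM) and *ADH4* at 13.6 TPM (31.0 TPM). The other was *ZRT3* in *vph1∆* replicate 2, at 51.9 TPM, where the median of the 4 *vph1∆* libraries was 45.4 TPM.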

How the results depend on the processing

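*ZRT1* and *ZRT2* in *fab1∆* against wild type were each past the threshold in 16 of 17 alternatives, and neither was in the pairwise fit (adjusted p 0.0687 and 0.0997, so 0 members called). That fit called 553 of all 6427 genes. With the replicate number as a block, 0 members were called in *atg18∆* (3 of all 6404 genes), 2 in *fab1∆* (1456) and 0 in *vph1∆* (302) against wild type. It called 1 between *vph1∆* and *fab1∆* (377 of all genes), 0 between *vph1∆* and *atg18∆* (42) and 0 between *fab1∆* and *atg18∆* (669). This block changed no member's call. Median scaling called 4 members in *vph1∆* against wild type (518 of all 6404 genes) and 6 between *vph1∆* and *fab1∆* (2044). It called 4 between *vph1∆* and *atg18∆* (314) and 2 between *fab1∆* and *atg18∆* (2577). Together with leaving out wild-type replicate 3 it called 5, 7, 4 and 4, where 833, 3139, 811 and 3592 of all 6408 genes were called. The pairwise fit called 6 members between *vph1∆* and *fab1∆* (2800 of all 6449 genes). It called 1 between *vph1∆* and *atg18∆* (411 of 6380) and 2 between *fab1∆* and *atg18∆* (3217 of 6435). A pseudocount of 5 called 1 in *vph1∆* against wild type (338 of all 6404 genes) and 1 against *atg18∆* (48). The term for replicates 1 and 2 against 3 and 4 called 1 between *vph1∆* and *atg18∆* (62 of all 6404 genes). Leaving out 1 library gave 0 members in *atg18∆* against wild type, 2 to 3 in *fab1∆*, 0 to 4 in *vph1∆*, 1 to 6 between *vph1∆* and *fab1∆*, 0 to 4 between *vph1∆* and *atg18∆* and 0 to 2 between *fab1∆* and *atg18∆*, with each highest count without wild-type replicate 3. The shares of all genes called without that library are given with those counts above.

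Some directions turned. Under median scaling these were, against wild type, *COT1* (-0.04), *ZAP1* (-0.13) and *ADH4* (-0.02) in *fab1∆* and *ZPS1* (-0.03) and *ADH4* (-0.16) in *vph1∆*, *ZRT3* between *vph1∆* and *atg18∆* (-0.01) and *COT1* between *fab1∆* and *atg18∆* (-0.04). With median scaling and without wild-type replicate 3, they were *ZRC1* (-0.06) and *COT1* (-0.06) in *atg18∆*, *COT1* (-0.10), *ZAP1* (-0.17), *ADH4* (-0.10) and *FET4* (-0.01) in *fab1∆*, *ZRT1* (-0.10), *ZRT3* (-0.00), *ZRC1* (-0.11), *ZPS1* (-0.03) and *ADH4* (-0.23, the 1 called) in *vph1∆*, and *ZRT3* (-0.01) and *COT1* (-0.04) as above. Leaving out 1 library gave *COT1* -0.00 to 0.39 in *atg18∆*, *ZRC1* -0.38 to 0.10 and *ZAP1* -0.06 to 0.31 in *fab1∆*, *ZRT1* -0.02 to 0.57, *ZRC1* -0.02 to 0.45, *ZAP1* -0.28 to 0.08 and *ADH4* -0.15 to 0.27 in *vph1∆*, *ZRT3* -0.03 to 0.05 between *vph1∆* and *atg18∆*, and *COT1* -0.03 to 0.05 and *ZPS1* -0.23 to 0.10 between *fab1∆* and *atg18∆*. The cause was not tested. Read numbers are unknown, so counting error cannot be given, which bears most on members of low level or short length, such as *ZAP1* and *ZPS1*.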

Other observations

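The genes most like *COT1* across the 15 libraries other than wild-type replicate 3, named after the values were seen, were *FRE6* (Pearson r 0.95), *ARN1* (0.95) and *ENB1* (0.94), of which *FRE6* encodes a vacuolar metal reductase and *ARN1* and *ENB1* encode carriers of iron bound to siderophores. *ZPS1* was most like *TCD2* (0.89), *OMA1* (0.87) and *HSP26* (0.86), the last of which encodes a small heat shock protein. These are descriptions over libraries that share genotypes, without a test.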
